A study of Mus musculus with 25 samples.

Results

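HSCs recovered after transplantation were compared directly with HSCs of mice that had received repeated doses of 5-FU, 2 forms of forced proliferation in blood-forming cells. The comparison used 10 of the 25 libraries, chosen by their labelled treatment. The transplanted arm held 3 libraries from 10 young HSCs, 1 from 50 and 1 from 500, all from the bone marrow of C57Bl/6 mice. The 5-FU arm held 3 libraries with 2 doses and 2 with 4 doses, from the bone marrow of C57Bl/6 mice labelled as 3.5 months old plus 6 months. The labels give no age, interval or recipient for the transplanted cells, no sorting markers, and no sex for any library. Age, time since treatment and arm therefore cannot be told apart. The labels do not say whether replicates are separate animals, so p-values here cover the spread between libraries, which may be technical. Some libraries outside the comparison served as points of reference. They were those of young HSCs (3.5 months, n = 2) and of mice aged like the 5-FU arm with 0 doses (n = 3). The others were those of old HSCs (25 months, n = 2) and of fetal HSCs (e14.5, n = 2).

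Haematopoietic stem cells (HSCs) self-renew and supply every blood lineage. A transplanted HSC divides extensively to rebuild the blood of its host, and 5-fluorouracil (5-FU) kills dividing blood cells, after which surviving HSCs enter the cell cycle. Methylation of cytosine in CpG dinucleotides is copied at each division by DNMT1, which UHRF1 brings to newly made DNA, while DNMT3A and DNMT3B add methylation at new positions and TET enzymes oxidise it. In mammalian cells, most CpG-poor DNA is methylated and most CpG-rich promoters are not. Reduced representation bisulfite sequencing (RRBS) reads this mark at restriction fragments rich in CpGs: bisulfite converts unmethylated cytosine, so the methylation level of a CpG is the percent of its reads that stayed unconverted.

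The transplanted libraries held 43051447 to 51074043 reads and the 5-FU libraries 22835325 to 55069692, and the median CpG of a library had 12 to 26 reads. In all 10 libraries, 732943 autosomal CpGs had at least 5 reads. They were summed in tiles of 1000 bp, and the 66039 tiles with at least 3 such CpGs were tested. Replicate 2 with 4 doses stood apart, with the fewest reads and 1246435 CpGs listed against 1504932 to 1594047 in the other 9 libraries. The arms also differed on the sex chromosomes, which were outside the comparison. Of 399 chromosome X tiles with at least 10 CpGs, 7.27% to 19.1% lay between 20% and 80% methylated in the transplanted libraries, with the 500-cell library lowest, against 1.25% to 2.01% in the 5-FU libraries. Chromosome Y held 0.0276% to 0.0386% of the reads after transplantation and 0.0462% to 0.0534% after 5-FU. The young libraries, at 12.03% to 12.28% of these X tiles, lay on the transplanted side, and the 0-dose libraries, at 2.01% to 2.76%, on the 5-FU side. On chromosome Y the young libraries, with 0.0467% to 0.0543% of the reads, lay with the 5-FU arm. Sex, or a mixture of sexes, and arm cannot be told apart for any autosomal result below.

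Methylation was lower after transplantation than after 5-FU at most tested tiles, though not at most tiles of low methylation. The mean level over all tiles was 49.7%, 51.1% and 49.7% in the 10-cell libraries, 52.0% in the 50-cell library and 52.8% in the 500-cell library. It was 54.8%, 53.8% and 55.2% with 2 doses and 55.7% and 56.5% with 4 doses. The arms did not overlap, at 51.1% ± 1.37 (SD, n = 5) after transplantation and 55.2% ± 1.01 (n = 5) after 5-FU, a difference of -4.14 points (two-sided exact permutation test, adjusted p = 0.0170 over 15 library values). This adjusted p comes from the smallest p that 252 splits of 5 against 5 allow, 0.00794. With reads pooled over tiles in place of equal weight, the difference was -1.84 points and did not pass (adjusted p = 0.327, exact permutation). Per tile, 73.5% of all tiles were lower after transplantation and the median difference was -2.60 points. This median was -0.516 points with at least 5 CpGs per tile and -0.85 points with at least 10 reads per CpG. At the 23100 tiles under 20% methylated in the young and 0-dose libraries, 45.05% were lower and the median difference was 0.0277 points.

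**Figure D1:**
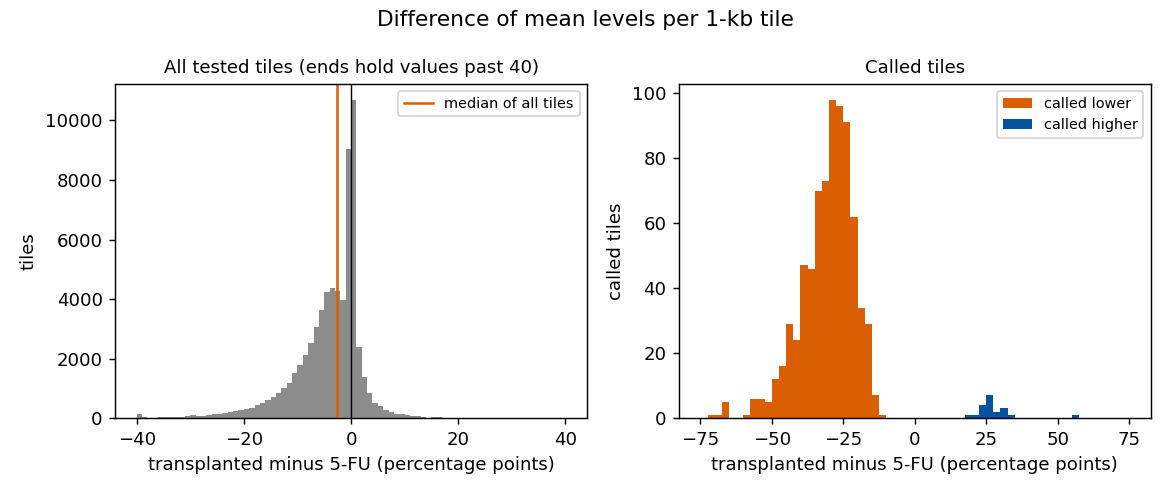
Difference of mean methylation (transplanted minus 5-FU, in percentage points) per 1-kb tile, as a histogram of all 66039 tested tiles (left, ends pooled past 40 points) and of the called tiles (right). The median of all tiles lies at -2.60 points, and 760 of the 780 called tiles lie below 0.

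In the test across all tiles, 780 tiles (1.18% of those tested) were called, 760 (1.15%) lower after transplantation and 20 (0.0303%) higher, with a quasi-binomial model, a Benjamini-Hochberg adjusted p under 0.05 and a difference of at least 10 points. The called decreases had a median of -29.0 points and the called increases a median of 26.0 points. Without any test, every transplanted library lay below every 5-FU library at 5133 tiles (7.77%) and above every one at 718 (1.09%). The number of calls changed when single libraries were left out, which also changed the CpGs used, while decreases were the larger share throughout. Decreases numbered 222, 42 and 6 without 10-cell replicate 1, 2 and 3, 220 without the 50-cell library and 464 without the 500-cell library. They numbered 220, 480 and 418 without 2-dose replicate 1, 2 and 3, and 296 and 885 without 4-dose replicate 1 and 2.

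The difference was largest in classes of tiles with few CpGs and a level of 20% or more. Tiles were classed by their mean level in the young and 0-dose libraries, which did not enter the comparison, and by the number of CpGs covered in the series. Class means of the young, 0-dose, old and fetal libraries were taken only over tiles where all of these libraries had at least 10 reads. The arms used every tile of a class, so the sets of tiles can differ. At the 7328 tiles between 20% and 80% with under 10 CpGs, the mean was 53.7%, 55.1% and 51.9% in the 10-cell libraries, 56.1% in the 50-cell library and 54.5% in the 500-cell library. In the same class the 2-dose libraries had 63.2%, 61.7% and 63.9%, and the 4-dose libraries 64.8% and 66.0%. All transplanted libraries were lower, by -9.70 points on average (adjusted p = 0.0170, exact permutation). Both the young mean of 59.0% ± 1.57 (n = 2) and the 0-dose mean of 62.5% ± 1.82 (n = 3) lay above every transplanted library in this class. With 10 to 29 CpGs the difference at this level was -5.17 points (52.5% ± 2.31 against 57.7% ± 1.02, n = 5 each, adjusted p = 0.0170, exact permutation).

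Highly methylated tiles with few CpGs differed as well, and here the libraries from more cells lay closer to the 5-FU arm. At the 23999 tiles at 80% or more with under 10 CpGs, the 10-cell libraries had 80.2%, 82.7% and 80.8%, the 50-cell library 84.4% and the 500-cell library 86.9%. The 2-dose libraries had 88.8%, 87.0% and 89.2%, and the 4-dose libraries 90.4% and 91.4%. The arms were separate by a narrow margin, since the 500-cell library and 2-dose replicate 2 differed by less than the spread of either arm. The difference was -6.34 points (adjusted p = 0.0170, exact permutation). The young mean was 90.0% ± 1.25 (n = 2), on the side of the 5-FU arm, but the class was chosen as high in the young and 0-dose libraries. With 1 library each at 50 and 500 cells, the order along the number of cells has no replicate error. With 10 to 29 CpGs, tiles at 80% or more had 86.0% ± 2.19 against 89.9% ± 1.27 (n = 5 each, adjusted p = 0.0265, exact permutation), where the 500-cell library overlapped the 5-FU arm. With 30 or more CpGs they had 87.7% ± 1.98 against 90.1% ± 1.02, which did not pass (adjusted p = 0.0833, exact permutation). Unlike in these classes, the 500-cell library was not the highest transplanted library at tiles between 20% and 80%.

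CpG-rich and unmethylated tiles showed little or no difference. Under 20%, the means were 4.45% against 4.84% with under 10 CpGs, 2.30% against 2.37% with 10 to 29 and 1.35% against 1.39% with 30 or more, none passing the test (adjusted p = 0.119 to 0.484, exact permutation). At the 102 tiles between 20% and 80% with 30 or more CpGs, the order was the other way round in 4 of 5 transplanted libraries. The 10-cell and 50-cell libraries had 45.3% to 49.3%, the 500-cell library 40.5%, and the 5-FU libraries 43.5% to 46.1%. The difference of 1.69 points did not pass (adjusted p = 0.385, exact permutation), but without the 500-cell library it was 3.09 points and passed (adjusted p = 0.0433, exact permutation). With 300-bp tiles it was 4.94 points (adjusted p = 0.0340, exact permutation). Among the called decreases, 85.0% lay in tiles with under 10 covered CpGs, a class that made up 56.8% of all tiles, and 4.97% of the tiles between 20% and 80% with under 10 CpGs were called lower, as were 4.30% of those with 10 to 29 CpGs at that level, against the background of 1.15%.

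**Figure D2:**
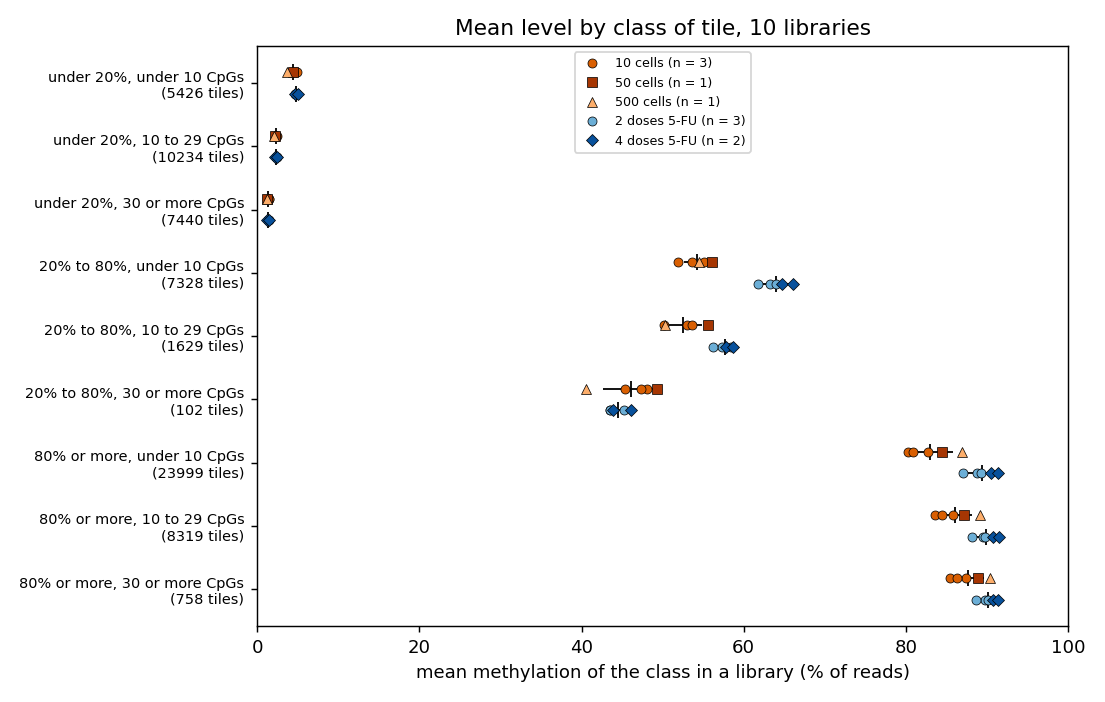
Mean methylation of each library (percent of reads, points) over tiles classed by level in the young and 0-dose libraries and by covered CpGs, with the mean and SD of each arm (black, n = 5). At tiles between 20% and 80% with under 10 CpGs, the transplanted libraries lie between 51.9% and 56.1% and the 5-FU libraries between 61.7% and 66.0%, while the arms coincide at tiles under 20%.

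At tiles that gain methylation with age, the transplanted libraries lay nearer to young HSCs and the 5-FU libraries near the 0-dose mice. These 1831 tiles were chosen as higher in old than in young HSCs, without any library of either arm, so the young mean is low there by choice. Their mean was 45.6%, 45.9% and 41.3% in the 10-cell libraries, 46.7% in the 50-cell and 39.7% in the 500-cell library. With 2 doses it was 54.8%, 53.9% and 55.3%, and with 4 doses 55.5% and 57.8%. The difference was -11.6 points with no overlap (adjusted p = 0.0170, exact permutation), against -9.70 points at all tiles between 20% and 80% with under 10 CpGs. The young mean was 41.4% ± 2.11 (n = 2), the 0-dose mean 54.6% ± 1.03 (n = 3) and the old mean 61.9% ± 1.68 (n = 2). Here and below, these reference means cover only the tiles with at least 10 reads in every reference library, unlike those of the arms. The 0-dose and 5-FU mice carried 6 more months of age than the young mice.

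Tiles that lose methylation with age were also lower after transplantation, so the transplanted arm was the lower one at tiles of both directions. Over 145 such tiles the transplanted mean was 48.2% ± 1.13 (n = 5) and the 5-FU mean 55.3% ± 1.95 (n = 5), a difference of -7.12 points (adjusted p = 0.0170, exact permutation). The young mean was 58.7%, the 0-dose mean 56.4% and the old mean 36.4%. With reads pooled over tiles the difference at these tiles was -3.94 points and did not pass (adjusted p = 0.155, exact permutation).

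Tiles that change from fetal to young HSCs showed a like contrast in 1 direction. At 2405 tiles that lose methylation from fetal liver to young marrow, the mean was 49.8% ± 1.66 (n = 5) after transplantation and 59.1% ± 0.790 (n = 5) after 5-FU, again with no overlap (-9.25 points, adjusted p = 0.0170, exact permutation). The difference was near the -9.70 points at all tiles between 20% and 80% with under 10 CpGs. The young mean at the fetal loss tiles, low by the choice of tiles, was 47.1% ± 1.20 (n = 2). The 0-dose mean was 59.95% ± 0.649 (n = 3) and the fetal mean 68.8% ± 0.454 (n = 2). At 1294 tiles that gain in the same interval, the difference was -3.11 points, which did not pass (adjusted p = 0.0866, exact permutation), with the 50-cell library at 68.2% inside the range of the 5-FU arm. Without that library it was -4.10 points and passed (adjusted p = 0.0149, exact permutation).

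**Figure D3:**
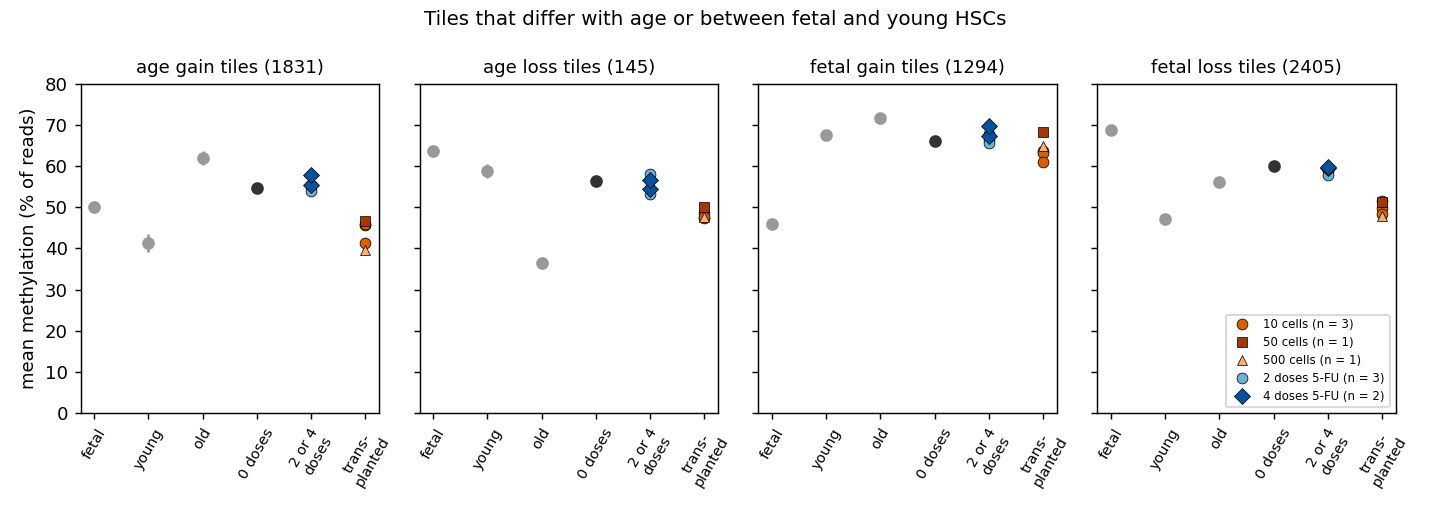
Mean methylation (percent of reads) over tiles that gain or lose with age and from fetal to young HSCs, for the fetal, young, old and 0-dose groups (grey and black, mean ± SD, n = 2 or 3) and for each library of the comparison. At the age gain tiles the transplanted libraries lie at 39.7% to 46.7%, near the young mean of 41.4%, which is low by the choice of tiles. The 5-FU libraries lie there at 53.9% to 57.8%, near the 0-dose mean of 54.6%. Means of the fetal, young, old and 0-dose groups cover only tiles with enough reads in all libraries of these groups.

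The 760 decreases were set beside the reference groups, as a description. At these tiles the median level ran from 42.6% to 49.3% in the transplanted libraries and from 78.3% to 86.8% in the 5-FU libraries. It was 66.9% in young, 78.0% in 0-dose, 83.6% in old and 78.0% in fetal HSCs. The 0-dose mean was nearer to the 5-FU arm at 655 of 752 tiles with a value, and the young mean at 420 of 759. At 368 of 751 tiles both were nearer to the 5-FU arm. At 286 tiles the young mean was nearer to the transplanted arm while the 0-dose mean was nearer to the 5-FU arm. Both were nearer to the transplanted arm at 51 tiles, and at 46 only the 0-dose mean was. At these tiles most 0-dose values thus lay with the 5-FU arm, while young HSCs lay on either side. The tiles were chosen for a large difference between the arms, and the same shares over all tested tiles were not computed. Whether these counts, or those of the smaller sets below, are particular to called tiles was not tested.

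The 12 largest decreases, among called tiles where the arms did not overlap and depth was sufficient, all rested on 3 to 5 CpGs. Transplanted means there ran from 4.24% to 28.5% and 5-FU means from 69.0% to 87.5%. At chr7:56123001-56124000 (mm9), within the gene E2f8, an atypical E2F factor that represses cell cycle genes, the 10-cell libraries read 0%, 5.45% and 0%, the 50-cell library 6.67% and the 500-cell library 9.09%. The 5-FU libraries read 72.7%, 54.5% and 67.4% with 2 doses and 65.6% and 98.4% with 4 doses. The difference of -67.5 points over 3 CpGs had an adjusted p of 0.00609 in the quasi-binomial test. The 0-dose mean was 85.7% ± 24.7 (n = 3) and the young mean 30.3% ± 35.8 (n = 2). The young mean was nearer to the transplanted arm, but its libraries differed widely.

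The tile at chr3:32588001-32589000 (mm9) combined a large difference with the lowest adjusted p of these 12. It lay 18.5 kb before the placed start of Actl6a, a subunit of SWI/SNF chromatin remodellers. The transplanted libraries read 14.53%, 13.4%, 14.4%, 1.43% and 6.74%, in the order of 10 (3 libraries), 50 and 500 cells. The 5-FU libraries read 80.2%, 64.0%, 85.0%, 76.8% and 71.3%, in the order of 2 (3 libraries) and 4 doses. No library came near the other arm, and the difference was -65.4 points (quasi-binomial adjusted p = 0.00123) over 89 to 348 reads per library. The young mean was 30.2% ± 12.04 (n = 2) and the 0-dose mean 52.8% ± 12.6 (n = 3), between the arms.

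Another large decrease lay at chr17:12934001-12935000 (mm9), within Igf2r, the imprinted receptor that clears IGF2. Over 3 CpGs the transplanted libraries ranged from 1.72% to 32.6% and the 5-FU libraries from 61.2% to 100%, a difference of -66.4 points (quasi-binomial adjusted p = 0.0161). The young mean of 15.7%, the 0-dose mean of 31.5%, the fetal mean of 36.3% and the old mean of 44.0% all lay nearer to the transplanted mean of 21.1% than to the 5-FU mean of 87.5%. The adjoining tile chr17:12935001-12936000 read 37.4% ± 3.24 and 33.5% ± 8.59 (n = 5 each), and the tile at the start of the gene 29.7% ± 7.28 and 27.5% ± 6.40, with no call at either. The difference at Igf2r was therefore confined, among these 3 tiles, to the 3 CpGs of the first. The other 9 of the 12 lay near the placed starts of Rom1, Inip, Rtkn, Dpf1, Zfp281, Plekhh2, Hlx, Pgap6 and Crygn, at 0.846 to 265 kb, with differences of -56.1 to -65.5 points. Over the 12, the 0-dose mean was nearer to the 5-FU arm at 10 and the young mean at 4.

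The 12 largest increases ran from 25.6 to 57.4 points, and 7 of them rested on 5 or fewer CpGs. The largest lay at chr2:167836001-167837000 (mm9), 78.2 kb beyond the placed start of Ptpn1, which encodes a tyrosine phosphatase. The transplanted libraries read 66.1%, 67.9%, 64.5%, 68.5% and 63.6%, and the 5-FU libraries 17.7%, 10.3%, 7.46%, 3.23% and 4.76% (quasi-binomial adjusted p = 0.00548). The 3 CpGs of this tile read 0% in all 3 of the 0-dose libraries and 33.1% ± 33.6 (n = 2) in old HSCs, and had too few reads in the young libraries. Among increases over more CpGs, the 14 CpGs of chr8:107792001-107793000 (mm9) read 49.8% ± 8.94 after transplantation and 20.5% ± 3.21 after 5-FU (n = 5 each, quasi-binomial adjusted p = 0.0224). The 12 CpGs of chr17:37125001-37126000 (mm9) read 47.8% ± 10.1 and 20.7% ± 4.65 (quasi-binomial adjusted p = 0.0310). At both, the young means of 10.4% and 10.3% and the 0-dose means of 17.2% and 13.5% were on the side of the 5-FU arm, and the 500-cell library was the lowest transplanted library.

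A tile within Usp12, a deubiquitinating enzyme gene, read 36.0% ± 10.1 after transplantation and 9.86% ± 3.77 after 5-FU (n = 5 each, quasi-binomial adjusted p = 0.0231). The remaining 8 increases lay 19.2 to 1081 kb from a placed start. At the tile 535.5 kb from the placed start of Slc35f4, each CpG had 277 reads in the median library, more than 99.9% of tiles. Over the 12, the 0-dose mean was nearer to the 5-FU arm at 10, and the young mean at 8 of the 11 with a value.

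**Figure D4:**
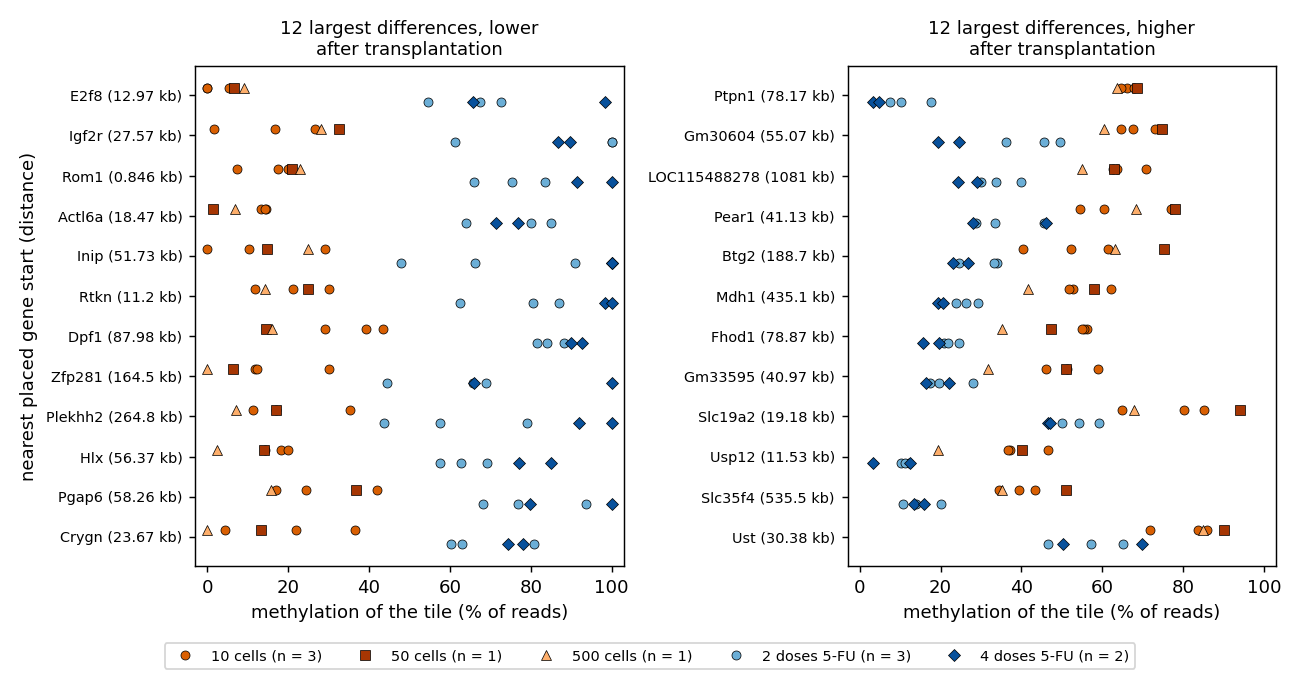
Methylation (percent of reads) of the 12 tiles with the largest decrease (left) and the largest increase (right) after transplantation, 1 point per library, named by the nearest placed gene start and its distance. On the left the transplanted libraries lie between 0% and 43.5% and the 5-FU libraries between 43.8% and 100%. In each row of both panels the arms do not overlap, by the choice of tiles.

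Gene starts were located by matching the CpG spacing of RefSeq promoter sequences to the deposited CpG positions, which placed 7482 starts of 6672 gene symbols. The starts, mostly unmethylated, differed by a small amount: over 5910 tiles that hold a placed start, the mean was 1.85% ± 0.0941 after transplantation and 2.05% ± 0.0737 after 5-FU (n = 5 each, adjusted p = 0.0265, exact permutation). Of the 10170 tiles within 2 kb of a placed start, 36 (0.354%) were called lower, against 1.15% of all tiles, and 1 was called higher. Of these 37 tiles, 6 held the start itself. Most tiles near starts were unmethylated: among those between 20% and 80%, 22 of 303 within 2 kb of a start but not holding it (7.26%) were called lower, against 4.81% of all tiles at that level. Among the 73 such tiles that held a start, 2 were called lower. Farther tiles at that level were called lower at 5.56% (2 to 5 kb), 6.34% (5 to 20 kb), 5.43% (20 to 100 kb) and 3.79% (over 100 kb). At the 36 decreases the 0-dose mean was nearer to the 5-FU arm in 26 and the young mean in 14.

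The decrease at Uhrf1 was the 1 call near a gene of the lists described below. UHRF1 binds hemimethylated DNA and brings DNMT1 to it. The tile chr17:56442001-56443000 (mm9) lay 736 bp before the placed start. Its 3 CpGs read 41.6%, 31.9% and 29.4% in the 10-cell libraries, 43.3% in the 50-cell and 31.4% in the 500-cell library. The 5-FU libraries read 76.1%, 71.5%, 72.3%, 75.7% and 70.2%. The arms were far apart, at 35.5% ± 6.44 against 73.1% ± 2.60 (n = 5 each, -37.6 points, quasi-binomial adjusted p = 0.0199). The young mean was 55.4% ± 3.14 (n = 2) and the 0-dose mean 66.2% ± 22.9, from the 2 libraries with enough reads. Old HSCs had 71.8% ± 7.25 and fetal HSCs 49.7% ± 10.1 (n = 2 each). The tile used 3 of its 9 covered CpGs, and leaving out libraries changes which CpGs have 5 reads in all the others. The 50-cell library was the highest of its arm, yet without it the difference was -12.5 points with no call (quasi-binomial adjusted p = 0.353). It was -12.0 points without the 50-cell and 500-cell libraries, and -14.4 with only 10-cell and 2-dose libraries. The CpGs behind each value were not compared. Over all alternatives the quasi-binomial or limma adjusted p ran from 0.00569 to 0.384. The 16 CpGs of the tile holding the start read 0.158% and 0.105%, with no call.

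Decreases near other starts included Rom1, which encodes a photoreceptor membrane protein (17.8% ± 6.12 against 83.3% ± 13.4, n = 5 each, quasi-binomial adjusted p = 0.00609). At Mgme1, which encodes a mitochondrial nuclease, the values were 37.8% ± 9.59 and 85.8% ± 8.78, and near Slc2a6, a sugar transporter gene, 23.5% ± 7.25 and 68.0% ± 9.76. The tile 1.73 kb before Gas5, a growth arrest-associated noncoding RNA gene, read 32.3% ± 13.95 and 70.7% ± 8.93. Both tiles at Ubb, a polyubiquitin gene, were lower, at 23.0% against 49.5% over the start and 7.20% against 32.8% in the tile 768 bp beyond it. The call over the start (quasi-binomial adjusted p = 0.0488) was lost under 16 of 23 alternatives, with adjusted p of 0.0226 to 0.173. At Traf6, a ubiquitin ligase of inflammatory signalling, the tile 424 bp beyond the start read 1.19% ± 0.658 and 16.2% ± 9.72 (n = 5 each), and the 4-dose libraries were the highest at 23.3% and 28.8%. With each CpG weighted equally, the difference at Traf6 was -5.40 points.

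Several of these decreases depended on how reads within the tile were weighted. With each CpG weighted equally, the difference became -0.652 points at Spint2, -5.42 at Myo1c, -8.98 at AI413582 and -3.42 at Sacm1l, against -28.5, -38.0, -26.1 and -20.9 with summed reads. At Spint2 it was 0.588 points with at least 10 reads per CpG. At Mcts2, an imprinted retrogene, the tile read 69.4% ± 14.6 and 96.2% ± 4.71 (n = 5 each), and the arms overlapped through the 50-cell library at 93.2%. This tile used 3 of its 17 covered CpGs. The difference was -9.73 points without 4-dose replicate 2, a setting in which the CpGs used were chosen again. The tiles at Vmn2r29, of a multigene family of vomeronasal receptors, and at the paired starts of Tmem267 and 3110070M22Rik were lower by -31.7 and -21.9 points. Each CpG there had 178 and 141 reads in the median library, against 37.7 over all tiles, and reads of near-identical copies cannot be told apart.

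**Figure D5:**
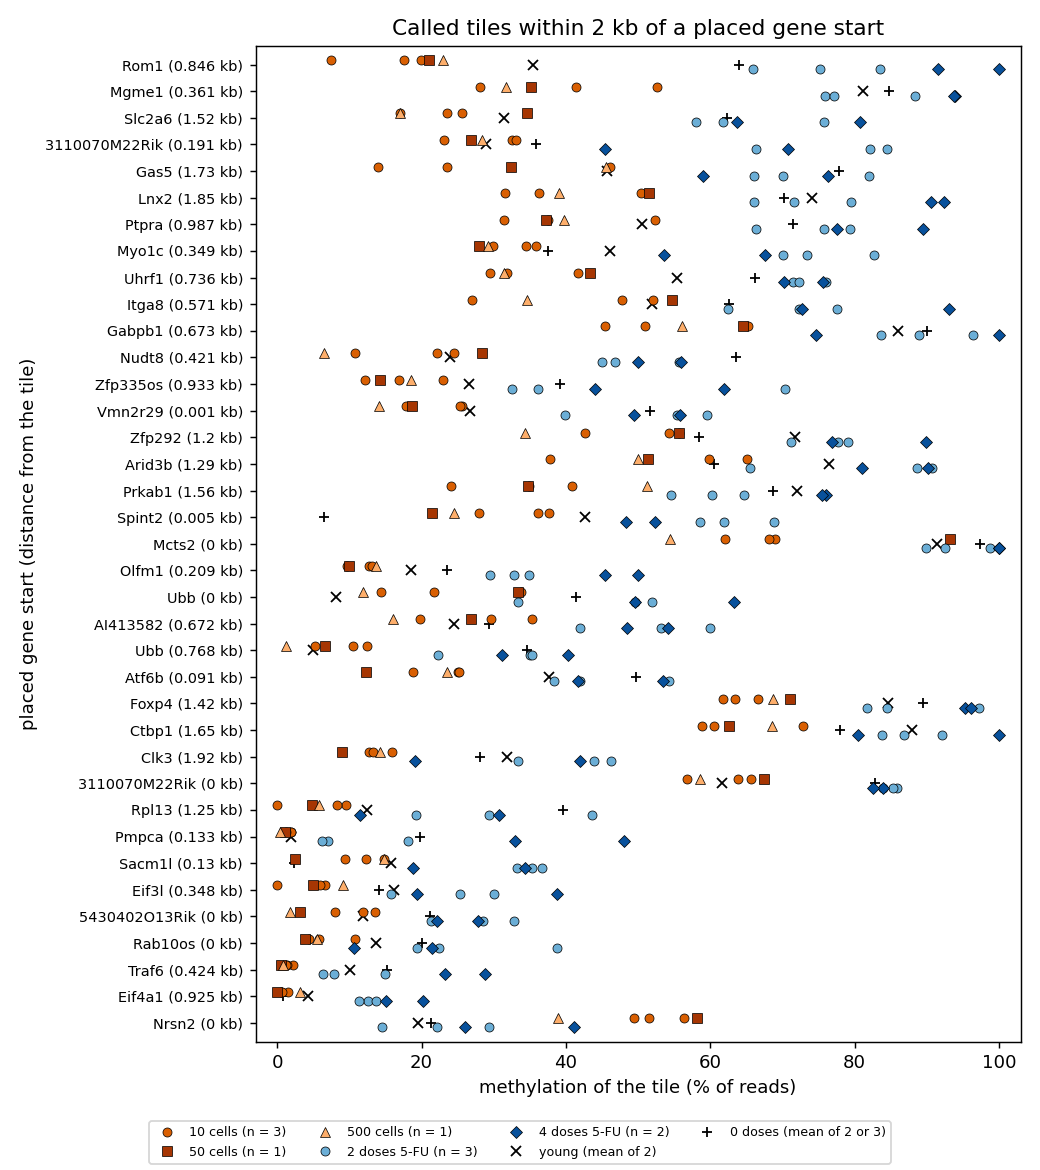
Methylation (percent of reads) of the 37 called tiles within 2 kb of a placed gene start, 1 point per library, with the means of the young and 0-dose libraries as crosses and the distance of the tile from the start in kb. In 36 rows the transplanted libraries are on average lower than the 5-FU libraries, from -13.4 points at Eif4a1 to -65.5 points at Rom1, and in the last row, Nrsn2, they are higher.

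The sequences of 3 promoters with a call over the start show where the measured CpGs lie. They are the 250 bases before the start from RefSeq (GRCm38.p6), 5′ to 3′ in the direction of the gene, at the mm9 positions given by the spacing of their CpGs; capitals mark the CpGs read in all 10 libraries. The first is at chr6:50516392-50516641 (plus strand), the second at chr12:3235541-3235790 (plus strand) and the third at chr2:152202342-152202591 (minus strand).
5430402O13Rik: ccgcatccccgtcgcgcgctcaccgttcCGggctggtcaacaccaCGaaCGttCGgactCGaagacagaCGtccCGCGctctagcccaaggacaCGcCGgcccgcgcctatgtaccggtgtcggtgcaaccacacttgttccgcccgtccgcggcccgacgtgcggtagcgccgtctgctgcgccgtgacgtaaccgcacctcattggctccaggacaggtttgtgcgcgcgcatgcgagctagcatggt
Rab10os: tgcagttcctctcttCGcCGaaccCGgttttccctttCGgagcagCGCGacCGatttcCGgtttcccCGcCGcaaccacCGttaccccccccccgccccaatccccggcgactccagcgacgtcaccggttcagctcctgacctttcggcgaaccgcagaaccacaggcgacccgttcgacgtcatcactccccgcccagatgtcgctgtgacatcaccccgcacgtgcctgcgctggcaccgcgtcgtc
Nrsn2: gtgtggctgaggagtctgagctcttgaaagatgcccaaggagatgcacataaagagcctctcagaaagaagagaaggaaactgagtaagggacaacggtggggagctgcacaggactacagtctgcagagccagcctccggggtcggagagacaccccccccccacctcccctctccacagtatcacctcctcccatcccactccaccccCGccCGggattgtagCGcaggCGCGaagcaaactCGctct

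The 10 capital CpGs of 5430402O13Rik, all in the distal part of the sequence, read 13.3% ± 9.90 after transplantation and 50.9% ± 15.7 after 5-FU (n = 5 each). The whole tile, with 20 CpGs, read 13.6%, 11.9% and 8.03% in the 10-cell libraries, 3.10% in the 50-cell and 1.78% in the 500-cell library, against 32.8%, 21.3%, 28.5%, 22.2% and 27.8% after 5-FU (quasi-binomial adjusted p = 0.0404). Over the 11 capital CpGs of Rab10os, the values were 7.11% ± 3.16 and 26.2% ± 12.2 (n = 5 each). The 0-dose means of both tiles, 21.2% and 20.1%, lay on the side of the 5-FU arm, and the young means, 11.9% and 13.7%, nearer to the transplanted arm. The calls at both tiles were lost under 15 of 23 alternatives, with adjusted p of 0.0136 to 0.203 and 0.0264 to 0.139 over all of them. Both promoters are CpG-rich, with 37 and 32 CpGs in the 250 bases; at least as many are found in 2.28% and 4.74% of the 31396 RefSeq promoters.

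Nrsn2, which encodes a vesicle membrane protein of neurons, was the 1 start with a called increase. Its 6 capital CpGs, next to the start, read 51.0% ± 5.00 after transplantation and 29.9% ± 14.1 after 5-FU (n = 5 each). The 12 CpGs of the tile read 51.6%, 56.4%, 49.5%, 58.2% and 38.9% against 29.3%, 22.1%, 14.51%, 26.1% and 41.1%, so the 500-cell library lay below 4-dose replicate 2. The adjusted p was 0.0424 in the quasi-binomial test and 0.0551 with limma, and over all alternatives it ran from 0.0228 to 0.121. The young and 0-dose means were 19.4% ± 1.61 and 21.4% ± 2.05.

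Gene lists were read through the tiles near their placed starts, and most list members had no placed start. Of 9 writers and erasers of methylation, 7 had tiles. Apart from the Uhrf1 tile, none of their 13 tiles was called, and the tiles over the starts of Dnmt1, Dnmt3b, Tet2 and Tet3 read under 1% in both arms. A tile at a second placed start of Dnmt3a read 1.60% after transplantation and 3.65% after 5-FU, without a call. At Tdg, a glycosylase that removes oxidised methylcytosine, the 2-dose libraries read 17.5%, 9.67% and 11.4% and the 4-dose libraries 1.88% and 0.365%, against 0% to 1.93% after transplantation, without a call (quasi-binomial adjusted p = 0.0997).

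No tile was called near 4 placed stem cell factors (15 tiles, median difference 0.335 points), 9 cell cycle genes (20 tiles, 0.0686), 6 Polycomb genes (15 tiles, -0.113), 7 p53 targets (16 tiles, -0.0789), 6 developmental genes (20 tiles, 0.561) or 5 imprinted genes (10 tiles, 0.169). The median of all 10170 tiles near placed starts was 0, and 0.354% of them were called lower. At that background the lists are too small for the lack of a call to be read as a difference. Near Runx1, a transcription factor required for blood stem cells, the tile chr16:92695001-92696000 (mm9) varied within both arms. It read 90.0%, 73.6%, 76.9%, 85.1% and 46.5% after transplantation and 65.8%, 43.3%, 91.6%, 19.8% and 24.0% after 5-FU. The arms overlapped and the tile was not called (quasi-binomial adjusted p = 0.333). The tile near Foxa2, an endoderm factor, read 33.7% ± 5.27 and 17.4% ± 8.82 (n = 5 each, adjusted p = 0.118), and that near Gadd45a, a p53 target, 26.6% ± 8.58 and 45.8% ± 10.8 (adjusted p = 0.0948), also without a call.

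Few markers of the labelled cell type were placed, and the cell type was not tested. Of 8 HSC markers, Hlf alone was placed, and its start read 0.181% after transplantation and 0.209% after 5-FU. Of 14 lymphoid markers, Tcf7 alone was placed, with 4 tiles and means of 33.9% and 36.2%. The tile over its start read 1.11% after transplantation and 0.837% after 5-FU. Its other tiles read 19.15% to 84.55% and 22.15% to 87.32%. None of 11 myeloid or 10 erythroid and megakaryocyte markers was placed, so their part in the results was not tested.

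Libraries of an arm differed from each other less than the arms did, but not by a wide margin. The median absolute difference between 2 libraries over all tiles was 2.34 to 4.14 points within the transplanted arm, 2.37 to 3.84 within the 5-FU arm and 2.65 to 6.57 between the arms. The 500-cell library lay 2.65 to 3.70 points from the 5-FU libraries and 3.03 to 4.14 from the 10-cell libraries, so by this measure it was no closer to the 10-cell libraries than to the 5-FU arm, and it lay 2.73 points from the 50-cell library. The 50-cell library lay 2.34 to 3.17 points from the 10-cell libraries and 2.84 to 4.88 from the 5-FU libraries.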

How the data were processed

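RRBS of mouse HSCs was deposited as 1 file per library. Each file lists CpGs on mm9, per the submitters' processing notes, with the methylated and total reads as a ratio of counts and a score made by the authors. In the deposited files, the score equalled the whole part of the methylated share in thousandths; it was not tested. For the aligner, caller, filters and duplicates: not given in the sources used here. Reads without molecular identifiers are not independent molecules, so depth understates the error.

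The members and gene lists were chosen with earlier results of these data known. CpGs with at least 5 reads in all 10 libraries, on the 19 autosomes, were summed in tiles of 1000 bp with at least 3 CpGs. Methylated and total reads were fitted by logistic regression with a mean per arm and Williams' weights (correlation within a library 0.0263). The dispersion was moderated by limma's empirical Bayes with a trend on depth (8 residual and 4.80 prior degrees of freedom) and held at 1 or more. An F test gave p-values, adjusted by Benjamini-Hochberg over all tiles. A difference is between the arms' mean library levels. The fit was also run on simulated reads in which few tiles changed, equally in both directions. That setting is unlike these data and does not show how the fit behaves where most tiles shift in the same direction.

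Library values were means over tiles, compared by two-sided exact permutation tests adjusted over 15 values, of which 1 (gene starts) was added after the values were seen. Age and fetal tiles were chosen with the same test in the fetal, young and old libraries. Named tiles are the 12 largest differences each way among called tiles where the arms did not overlap, every library had at least 20 reads and median depths differed by under 4 times. Tiles near Tdg, Runx1, Foxa2 and Gadd45a, and those singled out near gene starts, were chosen after their values were seen.

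No mm9 annotation was used. RefSeq promoters (250 bases before to 50 after a start) were placed where at least 8 covered CpGs all matched CpGs of the sequence at 1 position of its chromosome. Of 31396 promoters 7491 were placed once and 99.9% of them in step with a neighbour; 44 mirrored patterns were also placed. This was added after the files were seen, and a gene described as near a tile is the nearest placed one, not always the nearest. Replicate numbers did not pair libraries.

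Alternatives changed tile size, read and CpG minima, the test, the design, the chromosomes, the offset between libraries, and the libraries used. Where libraries were left out of the tile test, CpGs were chosen again from those kept, so a tile could hold other CpGs. Analyses used R 4.3.3 with limma 3.58.1, and Python 3.11.15 with numpy 2.4.6, pandas 2.3.3 and matplotlib 3.10.9.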

Additional observations from a re-analysis of the deposited data

Results flagged for a closer look

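Chromosome X was outside the comparison, and there the transplanted libraries had a median of 16.0% of CpG-rich tiles between 20% and 80% methylated, against 1.75% in the 5-FU libraries and 2.76% in the 0-dose libraries. Fitted with the autosomes, 377 of 2862 chromosome X tiles were called higher after transplantation and 30 lower. Of the autosomal tiles in that fit, 1323 were called lower and 38 higher. The labels give no sex, and the part of sex in the autosomal differences was not tested.

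In 3 of 150 arms of 5 libraries looked at, 1 library stood far from the others; chance gives about 1 in 20. At the Usp12 tile, 4-dose replicate 1 read 3.31% against 10.1% to 12.5% in the other 5-FU libraries. At the tile near Sacm1l, the same library read 18.8% against 33.3% to 36.7%. At the Rab10os start, 10-cell replicate 1 read 10.8% against 3.79% to 5.79% in the other transplanted libraries.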

How the results depend on the processing

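Against 760 decreases and 20 increases (quasi-binomial test), the counts were 156 and 9 with at least 10 reads per CpG, 463 and 30 with at least 5 CpGs, 259 and 15 with 300-bp tiles, 2924 and 70 with limma, 230 and 3 with 1 mean per group, 689 and 19 at 20 points, and 799 and 20 without CpGs over 500 reads. With the offset at 35 CpG-rich intermediate tiles removed they were 1539 and 20, and all 760 decreases were called again. With chromosome X they were 1353 and 415. Among settings chosen after seeing the data, setting the correlation by the median gave 1599 and 47, and limma with each CpG weighted equally 2875 and 66. Leaving out 1 library each gave 6 to 885 decreases and 1 to 18 increases. The cause of these changes was not tested. Only 10-cell against 2-dose libraries (3 against 3) gave 0 and 0 calls with the quasi-binomial test, with 15240 lower and 464 higher tiles at an unadjusted p under 0.05, and 580 and 19 calls with limma. Without the 50-cell and 500-cell libraries it gave 0 and 0, with 11496 and 352 at an unadjusted p under 0.05, and 6040 and 93 calls with limma.

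With the replicate number as a block (replicate block) 45 and 1 tiles were called. The numbers do not pair libraries: deviations of same-numbered 10-cell and 2-dose libraries correlated at -0.0275 to -0.00536. In the block the difference at tiles of 80% or more with 10 to 29 CpGs, -3.92 points, no longer passed (adjusted p = 0.0556, exact permutation).

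Of 225 recomputed library values, 209 stayed on the same side of the threshold or, where not tested, moved by less than the larger SD of the arms. The 15 values of only 10-cell against 2-dose libraries were not tested. No value that passed reversed, while values that did not pass could change sign. At 80% or more with 10 to 29 CpGs the call was lost at -3.35 points with at least 10 reads, at -3.64 with pooled reads and without any 1 of 4 of the 5-FU libraries (-4.69 to -3.32 points over all libraries left out). At 20% to 80% with 10 to 29 CpGs it was lost at -2.57 points with 300-bp tiles and -4.02 with pooled reads. All tiles (-1.84) and age loss tiles (-3.94) lost it with pooled reads. A call appeared at 20% to 80% with 30 or more CpGs with 300-bp tiles (4.94). Leaving out 1 transplanted library also made a call there (0.887 to 3.09 points over all libraries left out), at under 20% with under 10 CpGs (-0.524 to -0.204), at fetal gain tiles (-4.10 to -2.33) and at 80% or more with 30 or more CpGs (-3.11 to -1.87). Over 1312 recomputed values of named tiles, 738 kept the call, 573 kept the direction without it and 1 reversed, the Spint2 tile with at least 10 reads per CpG (0.588 points). Tiles of 300 bp gave no value for named tiles. Depth limits tiles of 3 CpGs with 22 reads in the shallowest library, where 1 read moves a level by several points.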
